A study of Mus musculus with 16 samples.

Results

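Nxpe2, Plet1, Ccn3, Slc37a2, Grin3a and Fa2h were followed in RNA-seq libraries of the terminal ileum, the last stretch of the small intestine, of male C57BL/6 mice. The 6 genes, out of 21965 in the count table, were selected on their measured levels: they had been high in only a few libraries of ethanol-fed mice, in which the large-intestine gene Car1 was also high. Their levels in ethanol-fed mice are therefore given as a description, and were tested only within pair-fed mice. WT mice were littermates of fat-1 mice, which were heterozygous for a C. elegans n3 fatty acid desaturase transgene expressed in all tissues. All mice were 8 to 10 weeks old at the start and received a Lieber-DeCarli liquid diet, either with ethanol raised stepwise to 6% v/v (EtOH) or with isocaloric maltose dextrin in matched amounts (pair-fed, PF). Each mouse gave 1 library. The PF groups held 4 mice of each genotype, and the EtOH groups held 5 fat-1 and 3 WT mice, named fat-1 EtOH 1 to 5 and so on by replicate. The transgene itself was not analysed here.

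The 6 genes have unlike roles. Ccn3 encodes a secreted matricellular protein of the CCN family, Plet1 a lipid-anchored surface protein of epithelial progenitor cells, and Nxpe2 a member of the neurexophilin and PC-esterase domain family. Grin3a encodes a glycine-binding subunit of NMDA-type glutamate receptors, which are best known in neurons. Slc37a2 encodes a sugar phosphate exchanger of the endoplasmic reticulum, and Fa2h the fatty acid 2-hydroxylase that supplies hydroxylated fatty acids to ceramides and other sphingolipids. Car1, the reference gene for these 6, encodes a cytosolic carbonic anhydrase that is abundant in surface epithelium of the large intestine, whereas the ileum is marked by bile acid uptake and transport genes. In whole tissue, fewer cells of a type and less RNA per cell cannot be told apart.

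Library totals ran from 8422645 to 11438539 counts, and 3 counts in a library corresponded to 0.246 to 0.421 CPM (counts scaled to the library total, adjusted by the trimmed mean of M values). At this depth levels under about that range cannot be told from 0. A few libraries stood apart and are named throughout: fat-1 EtOH 3, fat-1 EtOH 4 and WT EtOH 2. Car1 was at 11150 CPM in fat-1 EtOH 3, at 12200 CPM in fat-1 EtOH 4 and at 4039 CPM in WT EtOH 2, and between 0 and 79.1 CPM in the other 13. Fitted changes that rest on these libraries are in most cases given with and without them.

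The levels of the 6 genes did not follow Car1 in the same way. Nxpe2, Plet1, Ccn3 and Grin3a were high in fat-1 EtOH 3 and 4. In WT EtOH 2 the first 3 lay within the range of the other 13 libraries and Grin3a, with 7 counts, just above it (0.734 against 0.626 CPM). Slc37a2 and Fa2h were high in all 3, Slc37a2 most of all in WT EtOH 2. The genes were grouped under the name genes confined to colon-like libraries. With the 3 libraries taken as colon-like by Car1 alone, the name held in all 3 for Slc37a2, at 7.996 CPM or less in the other 13. It held in 2 of the 3 for Nxpe2, Plet1, Ccn3 and Grin3a, while Fa2h was graded. Not all markers set WT EtOH 2 apart: its bile acid handling genes summed to 7086 CPM, within the range of the other 13.

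**Figure D1:**
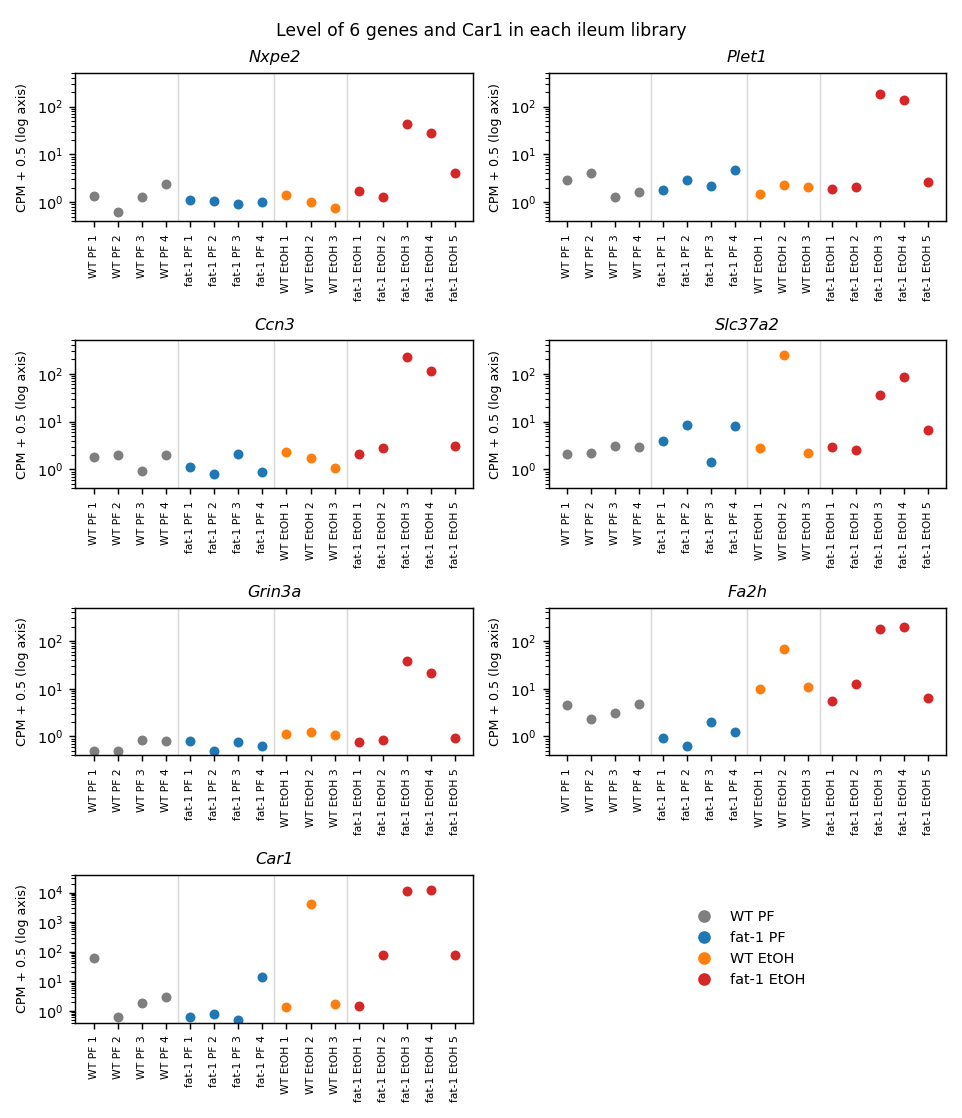
Level of the 6 genes and of Car1 in each of the 16 ileum libraries (points, one per mouse; y axis, CPM plus 0.5 on a log axis; x axis, library; colours, group). Nxpe2, Plet1, Ccn3 and Grin3a stand out in fat-1 EtOH 3 and 4 only, while Slc37a2, Fa2h and Car1 are also high in WT EtOH 2.

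Ccn3 (ENSMUSG00000037362, chr15:54745702-54754039 of GRCm38, plus strand) had the widest gap. In fat-1 EtOH mice it was at 1.61, 2.29, 221, 111 and 2.65 CPM (replicates 1 to 5). WT EtOH mice had 1.79, 1.26 and 0.588 CPM, WT PF mice 1.31, 1.47, 0.444 and 1.45 CPM, and fat-1 PF mice 0.635, 0.281, 1.64 and 0.368 CPM. Replicates 3 and 4 of fat-1 EtOH were far above all 14 remaining libraries, the lower of them 41.9-fold above the next library, and the other fat-1 EtOH mice lay close to the WT EtOH range. These 2 libraries held 94.9% of the CPM of Ccn3 summed over the 16 libraries. The group means were 67.8 ± 97.8 CPM in fat-1 EtOH (SD, n = 5), 1.21 ± 0.602 in WT EtOH (n = 3), 1.17 ± 0.489 in WT PF (n = 4) and 0.731 ± 0.624 in fat-1 PF (n = 4), and neighbouring groups in this order overlapped.

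Plet1 (ENSMUSG00000032068, chr9:50494525-50505482, plus strand) was at 1.42, 1.53, 183.5, 139.5 and 2.14 CPM in fat-1 EtOH. It was at 0.984, 1.78 and 1.59 CPM in WT EtOH, at 2.40, 3.51, 0.777 and 1.14 CPM in WT PF and at 1.27, 2.38, 1.64 and 4.17 CPM in fat-1 PF. The third highest library was a pair-fed one, fat-1 PF 4, and the lower of fat-1 EtOH 3 and 4 was 33.5-fold above it. Those 2 libraries held 92.4% of the summed CPM. The mean of fat-1 EtOH was 65.6 ± 88.9 CPM, against 2.37 ± 1.29 in fat-1 PF, 1.96 ± 1.25 in WT PF and 1.45 ± 0.418 in WT EtOH, all overlapping.

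Nxpe2 (ENSMUSG00000032028, chr9:48318006-48353454, minus strand) was at 1.23, 0.765, 43.0, 27.6 and 3.59 CPM in fat-1 EtOH. It was at 0.895, 0.525 and 0.252 CPM in WT EtOH, at 0.874, 0.113, 0.777 and 1.87 CPM in WT PF and at 0.635, 0.561, 0.410 and 0.491 CPM in fat-1 PF. Here fat-1 EtOH 5 was the third highest library, 1.92-fold above the fourth, and no other of the 4 genes had such a step between the third and the fourth library. Fat-1 EtOH 3 and 4 held 84.5% of the summed CPM. The mean was 15.2 ± 19.2 CPM in fat-1 EtOH, followed by WT PF (0.908 ± 0.724), WT EtOH (0.557 ± 0.323) and fat-1 PF (0.524 ± 0.0966), again overlapping.

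Grin3a (ENSMUSG00000039579, chr4:49661611-49845744, minus strand) was almost without counts elsewhere and was the member left out by the filter on low counts. In fat-1 EtOH it had 3, 4, 447, 236 and 5 counts, or 0.285, 0.340, 36.6, 21.04 and 0.427 CPM. Every WT EtOH library had 7 counts (0.626, 0.734 and 0.588 CPM), and the 8 pair-fed libraries had between 0 and 3. Fat-1 EtOH 3 lay at least 87.0-fold and fat-1 EtOH 4 at least 50.0-fold above fat-1 PF, taken at the highest level that 3 counts gave in a library of that group. The means were 11.7 ± 16.6 CPM in fat-1 EtOH, 0.649 ± 0.0760 in WT EtOH, 0.178 ± 0.145 in fat-1 PF and 0.161 ± 0.186 in WT PF. Levels of 3 WT EtOH libraries lay above those of the 8 pair-fed libraries, but by a few counts each.

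Slc37a2 (ENSMUSG00000032122, chr9:37227585-37255738, minus strand) was highest in a WT mouse. It was at 2.33, 253 and 1.68 CPM in WT EtOH and at 2.37, 2.04, 34.9, 86.5 and 6.24 CPM in fat-1 EtOH. WT PF libraries had 1.64, 1.70, 2.55 and 2.39 CPM, and fat-1 PF libraries had 3.495, 7.996, 0.956 and 7.73 CPM. WT EtOH 2 thus held 60.6% of the summed CPM and fat-1 EtOH 3 and 4 together 29.1%, and the rest of both EtOH groups overlapped the pair-fed mice. The means were 85.5 ± 145 CPM in WT EtOH, 26.4 ± 36.3 in fat-1 EtOH, 5.04 ± 3.42 in fat-1 PF and 2.07 ± 0.469 in WT PF, and neighbours in this order overlapped.

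Fa2h (ENSMUSG00000033579, chr8:111345135-111393824, minus strand) was graded rather than confined. It was at 5.13, 11.98, 173, 194.5 and 5.90 CPM in fat-1 EtOH and at 9.57, 67.4 and 10.6 CPM in WT EtOH. WT PF libraries had 4.04, 1.81, 2.66 and 4.36 CPM, and fat-1 PF libraries had 0.424, 0.140, 1.502 and 0.736 CPM. It was the only member for which every EtOH library lay above every PF library, a pattern that 3.14% of the 13811 tested genes had. The lowest EtOH level (5.13 CPM) and the highest PF level (4.36 CPM) lay close together. Group means fell in the order fat-1 EtOH (78.1 ± 96.8 CPM), WT EtOH (29.2 ± 33.1), WT PF (3.22 ± 1.19) and fat-1 PF (0.701 ± 0.587), of which the EtOH groups overlapped each other and no other pair did.

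Per kilobase of exon, Plet1 was the most abundant of the 6 in both fat-1 EtOH 3 (94.2 CPM per kb) and fat-1 EtOH 4 (71.7), Slc37a2 in WT EtOH 2 (38.0) and Fa2h in the other 5 EtOH libraries. Grin3a was lowest in all 16 libraries, with 2.98 CPM per kb at most.

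Set against Car1 in the same library, the genes separated further. Fa2h stood at 16.7, 15.5 and 15.9 CPM per 1000 CPM of Car1 in WT EtOH 2, fat-1 EtOH 3 and fat-1 EtOH 4, nearly 1 ratio. In the other libraries with at least 300 counts of Car1 it stood higher, at 69.0 in WT PF 1, 158 in fat-1 EtOH 2 and 74.6 in fat-1 EtOH 5. Slc37a2 stood at 62.6, 3.13 and 7.09 in the 3 libraries, highest in WT EtOH 2. Plet1 stood at 0.442, 16.5 and 11.44, and Ccn3 at 0.312, 19.8 and 9.11. Nxpe2 (0.130, 3.86 and 2.27) and Grin3a (0.182, 3.29 and 1.73) had the same order as Plet1 and Ccn3, with fat-1 EtOH 3 above fat-1 EtOH 4 and WT EtOH 2 far below both. As a share of the mean of fat-1 EtOH 3 and 4, the level in WT EtOH 2 was 34.6% for Car1 and 36.65% for Fa2h, 416% for Slc37a2, and from 0.758% (Ccn3) to 2.55% (Grin3a) for the other 4. In WT PF 1, fat-1 EtOH 2 and fat-1 EtOH 5, the other members also stood above their fat-1 EtOH 3 ratios, except Grin3a in WT PF 1. Nxpe2 stood there at 14.9, 10.1 and 45.4, Plet1 at 41.0, 20.2 and 27.0, and Ccn3 at 22.4, 30.3 and 33.5. Slc37a2 stood at 28.0, 27.0 and 78.9, and Grin3a at 0, 4.49 and 5.405. These ratios are described without a test.

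**Figure D2:**
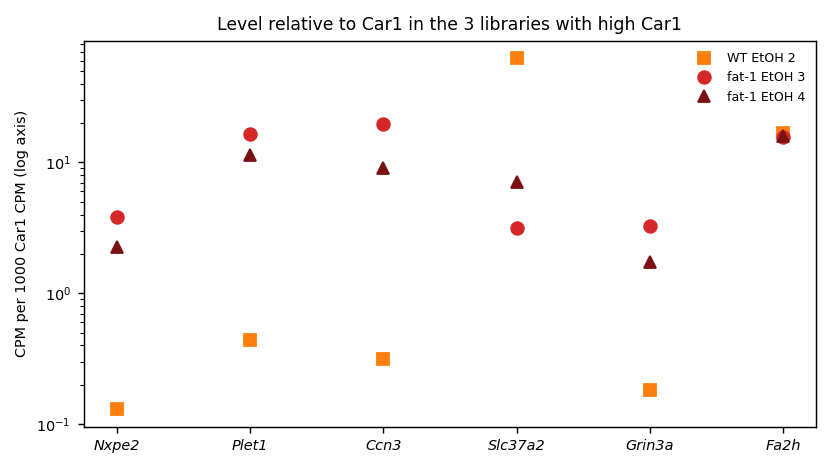
Level of each of the 6 genes per 1000 CPM of Car1 (y axis, log) in WT EtOH 2 (squares), fat-1 EtOH 3 (circles) and fat-1 EtOH 4 (triangles). Fa2h has nearly the same ratio in the 3 libraries (15.5 to 16.7), Slc37a2 is highest in WT EtOH 2, and the other 4 genes are far lower there.

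Some marker genes moved with these levels. Of 10 large-intestine genes, 9 had a count, and Fxyd4 was at 0 in every library. Their summed CPM was 5207 in WT EtOH 2, 12180 in fat-1 EtOH 3 and 13210 in fat-1 EtOH 4, against 281 to 544 in the other 13. In these 3 libraries the sum was mostly Car1. Aqp8, a water channel, was higher in WT EtOH 2 (315 CPM) than in fat-1 EtOH 3 and 4 (168 and 95.3). Slc37a2 was also highest in WT EtOH 2, with fat-1 EtOH 4 above fat-1 EtOH 3, the reverse of Aqp8. Scnn1b, a subunit of the epithelial sodium channel, was at 6.80 and 10.3 CPM in fat-1 EtOH 3 and 4 and at 1.15 in WT EtOH 2. Slc26a3, a chloride and bicarbonate exchanger, was at 472 CPM in WT EtOH 2 and 364 and 437 in fat-1 EtOH 3 and 4, against 102 to 208 in the other 13. Car4, the membrane carbonic anhydrase, did not stand apart (327, 358 and 347 CPM, against up to 326.6). In WT EtOH 2, Scnn1g (0.105 CPM), Atp12a (0) and Ly6g (0) lay within the range of the other 13.

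The posterior Hox genes, which mark position along the hindgut, were highest in fat-1 EtOH 3 and 4. Summed over 12 genes, of which 10 had a count, they reached 22.3 and 23.98 CPM in fat-1 EtOH 3 and 4, 2.73 in WT EtOH 2, in between, and 0 to 1.97 in the other 13. The goblet cell genes did not move together. Muc2, the secreted mucin, was at 8158 and 7539 CPM in fat-1 EtOH 3 and 4, against 2022 in WT EtOH 2 and 596 to 1847 in the other 13. Spdef, a goblet cell transcription factor, was at 200.1 and 113 CPM, against 27.0 and 19.5 to 31.2. Agr2, a protein disulfide isomerase, was at 1684 and 1294 CPM, against 572 and 267 to 675. Retnlb was graded, at 70.2 and 62.1 CPM in fat-1 EtOH 3 and 4, 36.6 in WT EtOH 2 and 0 to 8.65 in the other 13. Tff3 (656 and 709 CPM) and Fcgbp (2149 and 2111) lay below the lowest of the other 14 libraries (1044 and 2990), and Clca1 and Zg16 below the highest of the other 13.

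Smooth muscle genes summed to 3894 and 4039 CPM in fat-1 EtOH 3 and 4 and to 1858 to 2605 in the other 6 EtOH and 905 to 1433 in the 8 PF libraries, so that EtOH and PF did not overlap. Enteric neuron genes summed to 91.95 and 93.34 CPM there and to 36.9 to 55.4 in the other 14, and genes of glia and Schwann cells to 101.3 and 101.1 CPM against 45.0 to 68.6. B cell genes summed to 485 CPM in fat-1 EtOH 5, the library with the third highest Nxpe2, and to 1.96 to 97.8 CPM in the others. Adipocyte genes (645 CPM) and macrophage genes (262.5 CPM) were also highest in fat-1 EtOH 5, while squamous epithelium genes stayed at or below 1.37 CPM in all. Whether these cell types or segments account for any part of the members' levels was not tested.

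The ileal label was checked with 7 bile acid handling genes, all of which had counts. They summed to 1083 and 2059 CPM in fat-1 EtOH 3 and 4, 7086 in WT EtOH 2 and 443 to 8299 in the other 13. Genes of the proximal small intestine summed to 2302 to 53430 CPM in the 8 pair-fed libraries and to 88.1 to 706 CPM in the 8 EtOH libraries, without overlap. Diet, this difference and that of the smooth muscle genes (at most 1433 CPM in PF and at least 1858 in EtOH) cannot be told apart in Fa2h, whose EtOH and PF libraries did not overlap either.

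**Figure D3:**
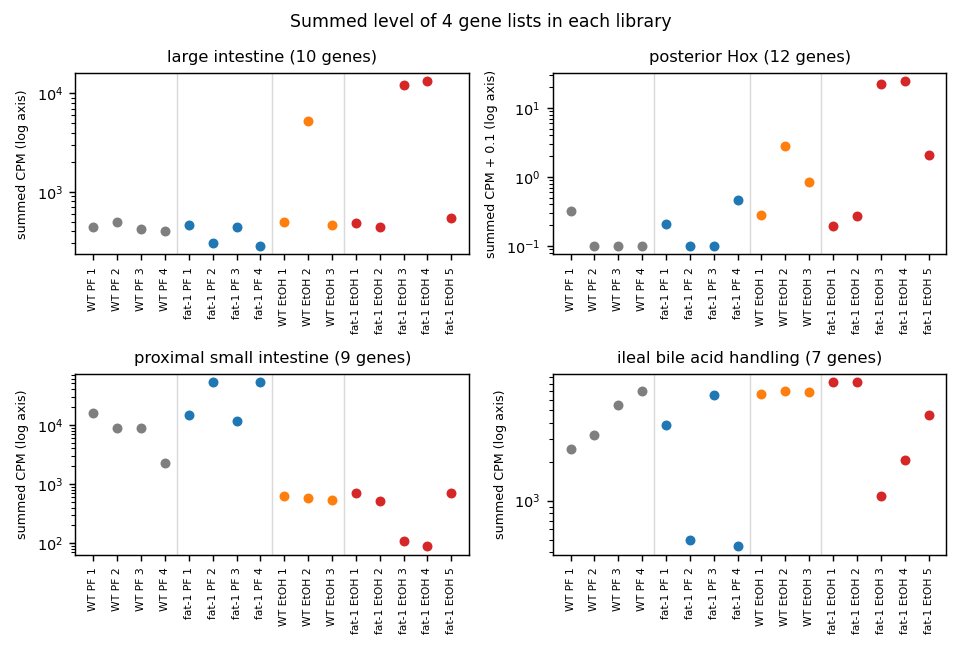
Summed CPM (y axis, log; 0.1 added for the posterior Hox genes) of 4 marker lists in each library (points, coloured by group as in the plot of levels by library). The large-intestine sum, mostly Car1, stands out in WT EtOH 2 and fat-1 EtOH 3 and 4, posterior Hox genes mainly in fat-1 EtOH 3 and 4, and genes of the proximal small intestine are lower in all EtOH than in all PF libraries.

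Within pair-fed mice the choice of the genes did not rest on a genotype difference, and that comparison was tested. None of the 5 members that passed the filter was called by edgeR's quasi-likelihood test at a Benjamini-Hochberg adjusted p of 0.05, and no gene of the 13811 was (0%), although 1757 had an unadjusted p under 0.05 and DESeq2 called 189 genes, no member among them. DESeq2 gave no adjusted p for 6427 genes in this comparison, and whether a member was among these is not given here. Nxpe2 passed the filter only through EtOH libraries, and with pair-fed mice alone 4 members were tested and 0 called. Pair-fed fat-1 mice had less Fa2h (0.701 ± 0.587 CPM) than pair-fed WT mice (3.22 ± 1.19 CPM), and the 4 mice of each genotype did not overlap. The share of all genes without overlap between these groups was not counted, so that how unusual this is cannot be said. The exact two-sided permutation test of log2(CPM + 0.5) gave p = 0.0286, the smallest that 4 against 4 mice allow, and 6 genes were tested in this way. In the fit across all genes the log2 fold change was -2.21 (SE 1.60; edgeR adjusted p = 0.612), so that the difference did not pass. It was -2.23 (SE 0.87; edgeR adjusted p = 0.229) without fat-1 EtOH 3 and 4 and -2.23 (SE 0.51; adjusted p = 0.158) without WT EtOH 2 as well, and passed in neither. The other 5 genes overlapped between genotypes, with exact permutation p from 0.286 to 0.914. Slc37a2 was highest in fat-1 PF 2 and 4, which were also the libraries with the highest sums of proximal genes (53430 and 53310 CPM) and low sums of bile acid handling genes (493 and 443 CPM). Proximal sums were 2302 to 15770 CPM in WT PF and 11490 to 53430 in fat-1 PF, and their part in the Fa2h difference was not tested.

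The fitted diet effects of the members in fat-1 mice changed in size when the named libraries were left out, and those of Plet1 and Slc37a2 also in sign. In WT mice the sign of Slc37a2 turned too, as given below. With all libraries, the log2 fold change from fat-1 PF to fat-1 EtOH was 6.80 (SE 1.46) for Fa2h, 6.53 (SE 1.59) for Ccn3, 4.82 (SE 1.20) for Nxpe2, 4.79 (SE 1.42) for Plet1 and 2.39 (SE 1.40) for Slc37a2. The comparisons share groups, and these contrasts chose the genes, so that the values are a description. Over all genes 37.4% were called in this comparison. Without fat-1 EtOH 3 and 4 they were 3.48 (SE 0.85) for Fa2h, 1.82 (SE 0.67) for Nxpe2, 1.61 (SE 0.53) for Ccn3, -0.44 (SE 0.48) for Plet1 and -0.46 (SE 1.47) for Slc37a2. Fa2h had the largest value in both.

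From WT PF to WT EtOH, a comparison in which 0.0796% of all genes were called, the log2 fold change was 5.36 (SE 1.67) for Slc37a2 and 3.16 (SE 1.22) for Fa2h, and between -0.71 and 0.04 for Nxpe2, Plet1 and Ccn3. Without WT EtOH 2 and fat-1 EtOH 3 and 4 it was -0.05 (SE 0.68) for Slc37a2 and 1.64 (SE 0.46) for Fa2h. From WT EtOH to fat-1 EtOH it was 5.80 (SE 1.66) for Ccn3, 5.49 (SE 1.67) for Plet1 and 4.75 (SE 1.31) for Nxpe2, and 0.85 (SE 0.52), 0.22 (SE 0.52) and 1.72 (SE 0.70) without fat-1 EtOH 3 and 4. For Slc37a2 it was -1.69 (SE 1.30), -4.6 without fat-1 EtOH 3 and 4, 3.71 (SE 1.45) without WT EtOH 2 and 0.82 (SE 0.69) without all 3 libraries. For Fa2h it was 1.43 (SE 1.10), -1.93 (SE 0.70) without fat-1 EtOH 3 and 4, 2.95 without WT EtOH 2 and -0.39 (SE 0.48) without all 3. The sign of both Slc37a2 and Fa2h thus depended on which libraries were left out. In the same comparison 0.00724% of genes were called, and in the interaction of genotype and diet 0% (1141 genes at an unadjusted p under 0.05 and none by DESeq2). The EtOH levels that enter both chose the members, whose calls are not given.

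Nxpe2, Plet1 and Slc37a2 lie on chromosome 9, as do 1210 genes of the table, and their RefSeq promoters (GRCm38.p6) are shown because they were the members with a promoter entry. The r of log2 CPM over the 16 libraries, a description, was 0.845 between Nxpe2 and Plet1, 0.535 between Nxpe2 and Slc37a2 and 0.594 between Plet1 and Slc37a2. Members on other chromosomes were more alike to both Nxpe2 (Ccn3 0.918, Grin3a 0.895) and Plet1 (Ccn3 0.911, Grin3a 0.865) than these were to each other. Each line gives the 250 bases before the annotated start, 5′ to 3′ on the strand of the gene, with matches to the searched motifs in capitals.

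Nxpe2 (chr9:48340899-48341148, minus strand): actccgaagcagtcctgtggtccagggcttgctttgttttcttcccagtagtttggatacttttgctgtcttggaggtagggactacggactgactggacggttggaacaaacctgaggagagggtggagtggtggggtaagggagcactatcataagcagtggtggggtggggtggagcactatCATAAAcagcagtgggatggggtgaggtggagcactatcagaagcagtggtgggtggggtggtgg
Plet1 (chr9:50494275-50494524, plus strand): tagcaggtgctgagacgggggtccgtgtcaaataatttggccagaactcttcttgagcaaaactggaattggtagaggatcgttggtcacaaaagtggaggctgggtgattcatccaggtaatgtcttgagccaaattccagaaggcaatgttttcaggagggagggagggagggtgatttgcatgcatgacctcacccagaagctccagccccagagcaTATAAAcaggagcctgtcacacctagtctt
Slc37a2 (chr9:37255739-37255988, minus strand): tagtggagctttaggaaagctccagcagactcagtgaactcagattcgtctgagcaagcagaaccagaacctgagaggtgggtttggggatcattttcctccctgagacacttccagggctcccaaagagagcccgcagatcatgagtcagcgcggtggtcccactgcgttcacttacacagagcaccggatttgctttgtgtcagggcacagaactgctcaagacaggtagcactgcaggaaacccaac

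Each motif was searched on both strands. For the CDX factors, which set intestinal identity, the letters were TTTATG. For factors of the GATA family they were AGATAA. For HNF1, a factor of gut epithelium, they were GTTAAT, and for HNF4, another such factor, CAAAGTCCA. The TATA box was searched as TATAAA, which was added after the sequences had been seen. Matches did not overlap in these windows. Nxpe2 held TTTATG on the opposite strand at -65 to -60 from the start, a motif that 10.8% of 32817 promoter windows of 250 bases had. Plet1 held TATAAA at -30 to -25, found in 12.4% of windows. No other match was present, and the motifs of the GATA family, HNF1 and HNF4 occurred in 9.99%, 6.44% and 0.384% of windows. The RefSeq start of Nxpe2 lies inside the span of the gene, and those of Plet1 and Slc37a2 at its first base.

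Overlapping annotation bears on 4 of the 6 genes. Nxpe2 lies entirely within Nxpe4, a paralogue on the opposite strand, and Plet1 entirely within the antisense gene Plet1os. Whether the counting used strand is not given in the sources used here, so that reads from exon stretches shared by such partners cannot be told apart. Nxpe4 was at 3.44 and 2.585 CPM in fat-1 EtOH 3 and 4 and highest in WT EtOH 1 (4.03 CPM), a library in which Nxpe2 was not raised. Of the 75-base windows of the annotated transcripts, the length of 1 read, 6.35% of those of Plet1 were shared with Plet1os and 2.49% of those of Slc37a2 with the antisense gene Gm48081, and none of those of Nxpe2, Ccn3, Grin3a or Fa2h with another gene. Ppp3r2 lies inside Grin3a on the same strand and had no counts in any library but fat-1 EtOH 3 and 4 (0.9015 and 1.16 CPM).

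Paralogues and pathway genes of the members, 45 in all, were compared beside them, and 35 were tested. In fat-1 EtOH against fat-1 PF, 15 of the 35 were called by edgeR, 8 higher and 7 lower, where 18.7% of all genes were called higher and 18.8% lower. One of the 8, Ugt8a, passed the filter on low counts only through the libraries in which it was high. The median of the 35 log2 fold changes was -0.04, against 0.05 for all genes. Diet cannot be told apart in these calls from the lower proximal small intestine genes of all EtOH libraries. Of the 7 called lower, Asah2, Slc37a4, Grin2d, Cers2, Arsa and Smpd2 were lowest among PF libraries in WT PF 4, and Smpd3 was not. WT PF 4 also had the lowest proximal sum of the PF libraries (2302 CPM), and a link was not tested. None of the 35 was called in the other comparisons. At an unadjusted edgeR p under 0.05 were 2 (fat-1 PF against WT PF), 9 (WT EtOH against WT PF), 2 (fat-1 EtOH against WT EtOH) and 3 (interaction). Over all 13811 tested genes these were 1757, 1952, 671 and 1141, in the same order. DESeq2 called 1 related gene in WT EtOH against WT PF and none in the others. Without fat-1 EtOH 3 and 4, 12 of 34 were called, 11 of them in common with the full set, where 30.8% of all genes were called.

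Among CCN genes, Ccn2 rose in fat-1 EtOH (log2 fold change 1.03, SE 0.34; edgeR adjusted p = 0.0302) and Ccn4 too (1.39, SE 0.24; adjusted p = 0.000843), but Ccn2 no longer passed without fat-1 EtOH 3 and 4 (0.51, adjusted p = 0.207). Ccn2 reached 16.2 and 12.1 CPM in those 2 libraries, against 2.55 to 8.72 CPM in the others, and Ccn4 was at 2.79 and 2.32 CPM there, within the range of the other fat-1 EtOH mice. Nxpe4 rose (1.10, SE 0.31; adjusted p = 0.0131), with no library above 4.03 CPM. Slc37a4, the glucose 6-phosphate carrier of the endoplasmic reticulum, fell by 1.88 (SE 0.29; adjusted p = 0.000528), while Slc37a1 and Slc37a3 did not pass. Of the NMDA receptor subunits, Grin2d fell by 1.72 (SE 0.39; adjusted p = 0.00409) and by 2.35 (SE 0.38; adjusted p = 0.00155) without fat-1 EtOH 3 and 4, in which it was at 3.36 and 2.14 CPM against 0.950 to 1.36 in the other fat-1 EtOH mice. Grin2a did not pass, and Grin1, Grin2b, Grin2c and Grin3b were too low to be tested. Grin1, the subunit that functional NMDA receptors share, was at 0.492 and 1.07 CPM in fat-1 EtOH 3 and 4 and at 0 to 1.26 CPM in the other 14 libraries.

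Of the 28 ceramide and sphingolipid genes around Fa2h, 25 were tested, 5 rose, Ugt8a among them, and 5 fell in fat-1 EtOH, shares close to the 18.7% and 18.8% of all genes called in these directions. Ugt8a, which makes galactosylceramide from ceramide, was at 0 in the 4 WT PF libraries and at 0 to 0.368 CPM in fat-1 PF. The EtOH libraries had 0.0895, 4.41 and 0.336 CPM (WT) and 0.285, 0.425, 20, 24.2 and 0.0855 CPM (fat-1). It had the order of Fa2h: high in fat-1 EtOH 3 and 4 and in between in WT EtOH 2. Its mean in fat-1 EtOH (8.99 CPM) was at least 21.4-fold higher than fat-1 PF at 3 counts. This is a description, since it was tested only because of the libraries in which it was high, and without fat-1 EtOH 3 and 4 it was too low to be tested. Asah2, the neutral ceramidase, fell by 3.99 (SE 0.56; adjusted p = 0.000319) and was lowest in fat-1 EtOH 3 and 4 (15.9 and 15.2 CPM), against 64.7 to 120 CPM in the other EtOH and 232 to 1103 CPM in the PF libraries. It also fell without those 2 libraries (log2 fold change -3.40). Cers5, a ceramide synthase, rose by 0.94 (SE 0.17; adjusted p = 0.00108) and Cers2, the synthase of very long chain ceramides, fell by 0.75 (SE 0.16; adjusted p = 0.00304), or by 0.49 (SE 0.12; adjusted p = 0.00991) without fat-1 EtOH 3 and 4.

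Acer1, an alkaline ceramidase, was at 65.0 and 76.1 CPM in fat-1 EtOH 3 and 4 and at 11.37 to 31.5 CPM in the other 14 libraries, but its log2 fold change did not pass and was -0.41 without the 2 libraries. Cers4 likewise was at 47.2 and 70.5 CPM there and at 14.8 to 38.0 elsewhere. Gal3st1, which sulfates galactosylceramide, did not pass with all libraries (-0.85, edgeR adjusted p = 0.0733) and fell without fat-1 EtOH 3 and 4 (-1.44, adjusted p = 0.00733).

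**Figure D4:**
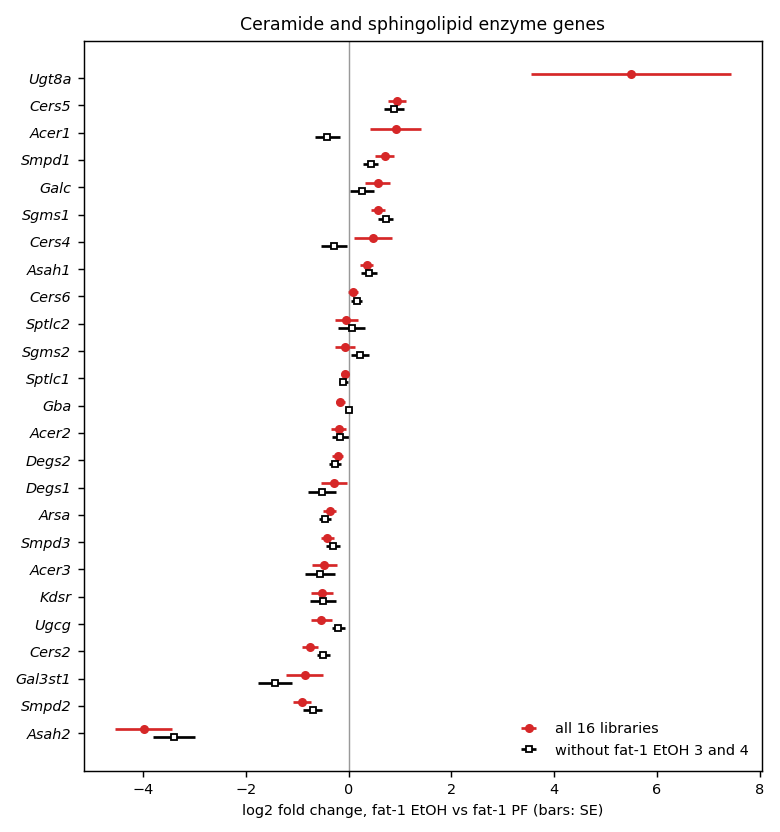
Log2 fold change from fat-1 PF to fat-1 EtOH (x axis; bars, SE) of the 25 tested ceramide and sphingolipid genes, with all 16 libraries (red circles) and without fat-1 EtOH 3 and 4 (open squares). Ugt8a, whose fitted value is no bound because the pair-fed level is near 0, has no square, Asah2 is low in both, and Acer1, Cers4, Sgms2 and Sptlc2 change sign.

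Genes next to the members on the chromosome were compared as well. Of the 2 nearest table genes on each side, 24 in all with 21 tested, 7 were called in fat-1 EtOH against fat-1 PF, 6 higher and 1 lower, set against the 18.7% and 18.8% of all genes called in these directions. Among the 6, Pknox2 passed the filter on low counts only through EtOH libraries (at most 0.842 CPM in PF, 0.895 to 1.64 CPM in EtOH). Diet and the lower proximal small intestine genes of EtOH libraries cannot be told apart in these calls either. The highest was Enpp2, the lysophospholipase D next to Ccn3, with a log2 fold change of 1.98 (SE 0.61; edgeR adjusted p = 0.0205). It was at 75.4 CPM in fat-1 EtOH 5 and at 9.69 to 14.6 CPM in the other 4 fat-1 EtOH mice, and without fat-1 EtOH 5 its log2 fold change was 1.00 (SE 0.34; edgeR adjusted p = 0.0341). That library also had the highest sums of adipocyte, B cell and macrophage genes, whose part in the Enpp2 level was not tested. Bco2, a carotenoid cleavage enzyme next to Plet1, fell by 2.58 (SE 0.39; adjusted p = 0.000458). Without fat-1 EtOH 3 and 4, 4 of the 21 were called, where 30.8% of all genes were.

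The genes most like each member were taken by Pearson's r of log2 CPM over the 16 libraries, which share depth and the 3 libraries named above, so that r is a description. Ccn3 was most like Klk1 (r = 0.969), Ffar2, Spdef, Slc35a1 and St3gal3, and Grin3a like Galnt4 (0.975), Klk1, Ermp1, Mat2a and Slc35a1. Klk1 was at 850 and 614 CPM in fat-1 EtOH 3 and 4 and at 33.0 to 102 CPM elsewhere. Plet1 was most like Bace2 (0.967), Smim14, Oit1, Slc50a1 and Ffar2, and Nxpe2 like Ldlrad3 (0.945), Abhd8, Mgll, Isg20 and Fam43a. Without fat-1 EtOH 3 and 4 the r of these 20 pairs lay between 0.308 and 0.781, and without WT EtOH 2 as well, a setting chosen after seeing the data, between 0.310 and 0.817.

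Slc37a2 and Fa2h had other partners. Slc37a2 was most like Aqp8 (0.919), Gal3st2c, Slc20a1, Ces1g and Pparg, and only 4 genes had r above 0.9 with it. Gal3st2c was at 159 CPM in WT EtOH 2 and at 52.5 and 101 CPM in fat-1 EtOH 3 and 4, the order of Slc37a2. Fa2h was most like Pitpnm3 (0.977), Ildr1, Abca12, 1810065E05Rik and Il17re. Abca12, a lipid transporter, was at 41.5 CPM in WT EtOH 2, at 121 and 136 CPM in fat-1 EtOH 3 and 4 and at 0 to 5.79 CPM in the other 13. Without fat-1 EtOH 3 and 4, r lay between 0.861 and 0.904 for the 5 pairs of Slc37a2 and between 0.932 and 0.958 for those of Fa2h, with WT EtOH 2, in which both were high, still among the 14 libraries. Without WT EtOH 2 as well (13 libraries), r lay between 0.185 (Gal3st2c) and 0.908 (Pparg) for Slc37a2 and between 0.913 and 0.950 for Fa2h.

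**Figure D5:**
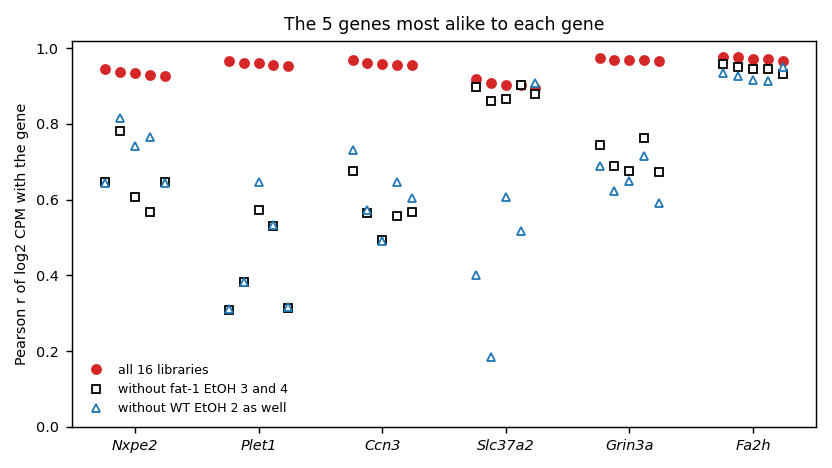
Pearson's r of log2 CPM (y axis) between each of the 6 genes (x axis) and the 5 genes most like it, over all 16 libraries (red circles) without fat-1 EtOH 3 and 4 (open squares) and without WT EtOH 2 as well (open triangles). Without all 3 libraries r is 0.913 to 0.950 for Fa2h, 0.185 to 0.908 for Slc37a2 and 0.310 to 0.817 for the other 4 genes.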

How the data were processed

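Poly(A) RNA of terminal ileum was sequenced from 16 mice with a stranded library kit (2 × 75-base reads). The authors deposited raw read counts per Ensembl gene; per the labels FastQC 0.10.1 was run, reads were aligned by the study to mm10 (GRCm38), and, by the name of the deposited table, reads were counted with HTSeq, whose strand setting is not given in the sources used here. Gene names and positions came from GENCODE M21 (GRCm38), which lacked 26 of the 21965 gene IDs. Counts were fitted with edgeR 4.0.16 (R 4.3.3): trimmed-mean normalization, filterByExpr on the 4 groups (13811 genes), quasi-likelihood test with 1 mean per group, Benjamini-Hochberg adjustment over all tested genes, calls at 0.05. The script was tested on simulated data. DESeq2 1.42.0, other normalizations and filters, single left-out libraries and a replicate block were alternatives. For log2(CPM + 0.5) of single genes in pair-fed mice an exact permutation test was used. Log2 CPM for likeness used a prior count of 2.

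The genes named are the 6 members, Car1, their paralogues and pathway genes, the 2 nearest table genes on each side, the 5 genes most like each member and marker genes. These members, lists and tests were chosen with earlier results of these data known. Replicate numbers did not pair the mice. Libraries of 1 group differed beyond sampling noise (chi-square per gene at least 7.57), so none was counted as a duplicate. Nothing in the labels names a cage or batch. The sample titles number the PF libraries 1 to 8 and the EtOH libraries 9 to 16, so that number order and diet cannot be told apart. WT EtOH 2, fat-1 EtOH 3 and fat-1 EtOH 4 have the consecutive numbers 12, 13 and 14. What these numbers stand for is not given. Adjusted p-values weigh a group difference against the spread between mice, with 1 estimate shared by the 4 groups. Promoter sequences were from RefSeq, which matched 3 of the 6 members. Python 3.11.15 and matplotlib 3.10.9 were used for sequences and figures.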

Additional observations from a re-analysis of the deposited data

Results flagged for a closer look

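Within groups of 4 or 5 libraries, 1 library was marked when its gap to the next was large against the range of the group. This held in 3 of 14 combinations of a gene (the 6 members and Car1) and a PF group. The nominal chance rate is about 1 in 20, which was not checked for counts this low. The 7 combinations with fat-1 EtOH are left out of this count, since their values chose the genes. Ccn3 was at 0.444 CPM in WT PF 3, below the other 3 mice of that group (1.31 to 1.47 CPM), a difference of 4 counts against 12 to 14. Car1 was at 58.5 CPM in WT PF 1, against 0.113 to 2.39 CPM in the other WT PF mice, and at 13.6 CPM in fat-1 PF 4, against 0 to 0.281 CPM in the other fat-1 PF mice. In WT PF 1 no member stood out, and in fat-1 PF 4 Plet1 (4.17 CPM) was the highest of the pair-fed libraries. Fat-1 EtOH 3 and 4 could not be marked in this way, being 2 high libraries of 5.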

How the results depend on the processing

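No member was called in fat-1 PF against WT PF under any alternative run, with 0 to 6 members tested, and at least 10 counts in every library left none to test. Related genes called in WT EtOH against WT PF (0 of 35) became 2 with only the groups compared, 1 without fat-1 EtOH replicates 3 and 4 and 1 by DESeq2; the cause was not tested. Leaving out 1 library at a time gave 0 to 1 there (1 without WT PF replicate 4), 11 to 16 in fat-1 EtOH against fat-1 PF (15 with all), and 5 to 9 for the neighbouring genes (7 with all), which were 4 with only the groups compared and 4 without fat-1 EtOH replicates 3 and 4. Over all genes, DESeq2 called 257 in WT EtOH against WT PF and 5 in fat-1 EtOH against WT EtOH, where edgeR called 11 and 1, and 189 against 0 in fat-1 PF against WT PF.

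Same-numbered mice did not deviate together (mean r = -0.022 over 21 pairs, against 0.007 over 74 others). The replicate block gave 14 related and 6 neighbouring genes called in fat-1 EtOH against fat-1 PF, 0 related genes in the other comparisons and 0 members in fat-1 PF against WT PF.

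Depth limits Nxpe2, Ccn3 and Grin3a outside fat-1 EtOH 3 and 4 (5, 12 and 7 counts in WT EtOH 2) and Fa2h in fat-1 PF (4, 1, 11 and 6 counts). Mean levels of the members by group moved by less than the SD between mice under the other library scalings.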
